A study of Mus musculus with 8 samples.

Results

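Chemokine ligand genes encode small secreted proteins that attract and position cells through G-protein-coupled receptors. The genes described were all those in the count table whose symbol began with Ccl or Cxcl followed by a number, which were 45 of the 55421 genes in the table. These 45 entries carried 39 symbols, since 5 symbols stood on more than 1 genomic copy, and 2 entries were pseudogenes. Of the 45 genes, 32 had a count in any library and 24 passed the filter on low counts and were tested, among 20588 tested genes. The filter keeps genes with counts in at least as many libraries as a group holds, so these 24 do not stand for all 45.

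Most of the CXC and CC families attract leukocytes, and fibroblasts, endothelial cells and macrophages secrete many of them in response to inflammatory signals through NF-kappaB or interferon signalling. A few have roles outside immunity: Cxcl12 guides germ cells to the embryonic gonad and retains stem cells in niches through its receptor Cxcr4, while the receptor Ackr3 takes up Cxcl12 without classical signalling. In the testis, GDNF and FGF2 sustain spermatogonial stem cells, and somatic cells provide both growth factors and chemokines.

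The samples were bulk RNA-seq libraries of primary cultures of undifferentiated mouse spermatogonia (SSC culture), started from neonatal testes of C57BL/6 and DBA/2 hybrid background and kept on irradiated mouse embryonic fibroblast feeders. Per the labels, the culture medium held N2, bFGF and GDNF. The cultures were Stra8KO or labelled Spo11KO, lacking either Stra8, a gene that retinoic acid induces at the entry into meiosis, or Spo11, the enzyme of meiotic DNA breaks, and each genotype was compared under vehicle (Veh) and under NRRA, a nutrient restriction medium based on EBSS combined with retinoic acid (RA). In the paper the NRRA medium is mostly EBSS with a small part of the SSC medium, so the growth factors were diluted too. The 4 groups had 2 libraries each, 8 in all, and no wild-type culture was analysed here. Neither RA alone nor nutrient restriction alone was among the groups, so their effects cannot be told apart. The study's methods describe the 2 libraries of each group as independent biological replicates.

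The libraries held 20960794 to 27038868 counts. The Stra8KO libraries held 2 and 0 Stra8 counts under Veh and 169 and 170 under NRRA, whereas those labelled Spo11KO held 28 and 12, and 12604 and 16191. Spo11 counts (32 and 31, then 68 and 66 in Stra8KO) were not lower in the libraries labelled Spo11KO (72 and 75 with Veh, 148 and 127 with NRRA), so they did not check that label. Germ cell markers (10 genes such as Ddx4 and Dazl) took 0.0927% to 0.245% of all counts and fibroblast markers (20 genes such as Col1a1 and Pdgfra) took 1.46% to 4.15%. Of the fibroblast markers, 20 of 20 were called higher in Stra8KO than in the libraries labelled Spo11KO in both media. The germ cell markers were called lower in Stra8KO in 10 of 10 cases under Veh and in 9 of 10 under NRRA. In these mixed cultures, fewer cells of a type and less RNA per cell cannot be told apart.

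In Stra8KO, chemokine ligand genes took 0.240% and 0.248% of all counts with Veh and 0.256% and 0.263% with NRRA. Where labelled Spo11KO, the libraries gave 0.111% and 0.116% with Veh, then 0.152% and 0.155% with NRRA. Per 100 counts of the fibroblast markers, Stra8KO had 9.39 and 9.46 chemokine counts with Veh but 6.18 and 6.41 with NRRA, while the other genotype had 7.51 and 7.89 with Veh but 6.06 and 6.46 with NRRA. The share of all counts was higher in both Stra8KO groups than in either group labelled Spo11KO. Between 77.2% and 87.7% of these counts came from Ccl2, Ccl11, Ccl7, Cxcl5 and Cxcl1.

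Levels are given as CPM, counts per 1e+06 counts of a library after TMM scaling. Divided by exonic length, the mean level over all libraries was highest for Ccl2 (508 CPM per kb), Ccl7 (338), Ccl11 (305), Cxcl5 (144), Ccl8 (91.6) and Cxcl1 (86.8). Cxcl10 (30.8), Cxcl12 (14.0) and Cxcl16 (10.1) came next, and the other 15 tested members were between 0.104 and 6.42 CPM per kb. Ccl2 led in every group, and the order below it differed between groups. In Stra8KO Veh, Cxcl1 (170 CPM per kb) and Ccl8 (138) were above Cxcl5 (124), whereas in Stra8KO NRRA Cxcl5 (248) was above Ccl8 (111) and Cxcl1 (72.8). Ccl7 was above Ccl11 in every group except Spo11KO NRRA (212 against 224 CPM per kb). The plot of levels by library shows how far the groups were apart for each gene.

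**Figure D1:**
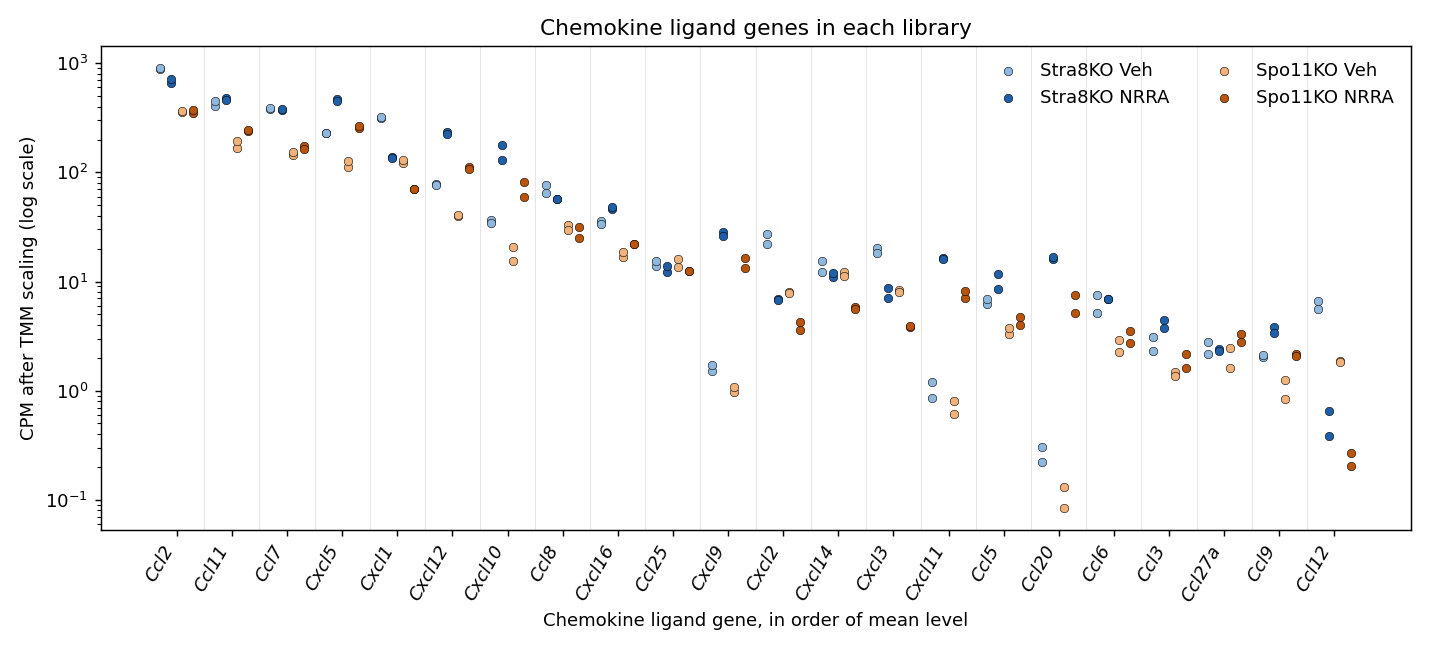
CPM after TMM scaling (log scale) of the 22 chemokine ligand genes with a mean of at least 1 CPM, in order of mean level, with 1 point per library and 1 colour per group (2 libraries each). Ccl2 sits at 351 to 907 CPM, whereas Ccl20 moves from under 0.4 CPM in the 4 Veh libraries to 5.13 to 16.6 CPM in the 4 NRRA libraries.

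To ask what NRRA changed, NRRA was compared with Veh in each genotype with edgeR's quasi-likelihood test and Benjamini-Hochberg adjustment over all tested genes, and genes with an adjusted p below 0.05 were called. In Stra8KO, 11 of the 24 members were higher and 6 lower under NRRA, where 21.6% of all tested genes were called higher and 20.2% lower. In the libraries labelled Spo11KO, again 11 members were higher and 6 lower, against 24.5% and 25.5% of all tested genes. The members had a median log2 fold change of 0.14 (Stra8KO) and 0.36 (labelled Spo11KO), beside 0.01 over all tested genes in each. When the counts of the fibroblast markers replaced the library size, the split turned to 6 higher and 13 lower for Stra8KO, and to 6 higher and 11 lower for the other genotype, where 73.4% and 73.9% of all tested genes were called in either direction. These markers summed together were higher under NRRA by 0.68 and 0.65 (log2), although single markers moved both ways (13 called higher and 6 lower, then 13 and 7), and their part in the member values was not tested. Their median change was smaller, at 0.50 and 0.28, since the sum is weighted to genes of high level. In Stra8KO, Col1a1 went from 4140 to 11400 CPM and Fn1 from 10500 to 7870 CPM. Ccl20, Cxcl9, Cxcl10, Cxcl11, Cxcl12 and Cxcl5 were called higher, and Cxcl1, Cxcl2, Cxcl3 and Ccl12 lower, in both genotypes with either scaling.

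**Figure D2:**
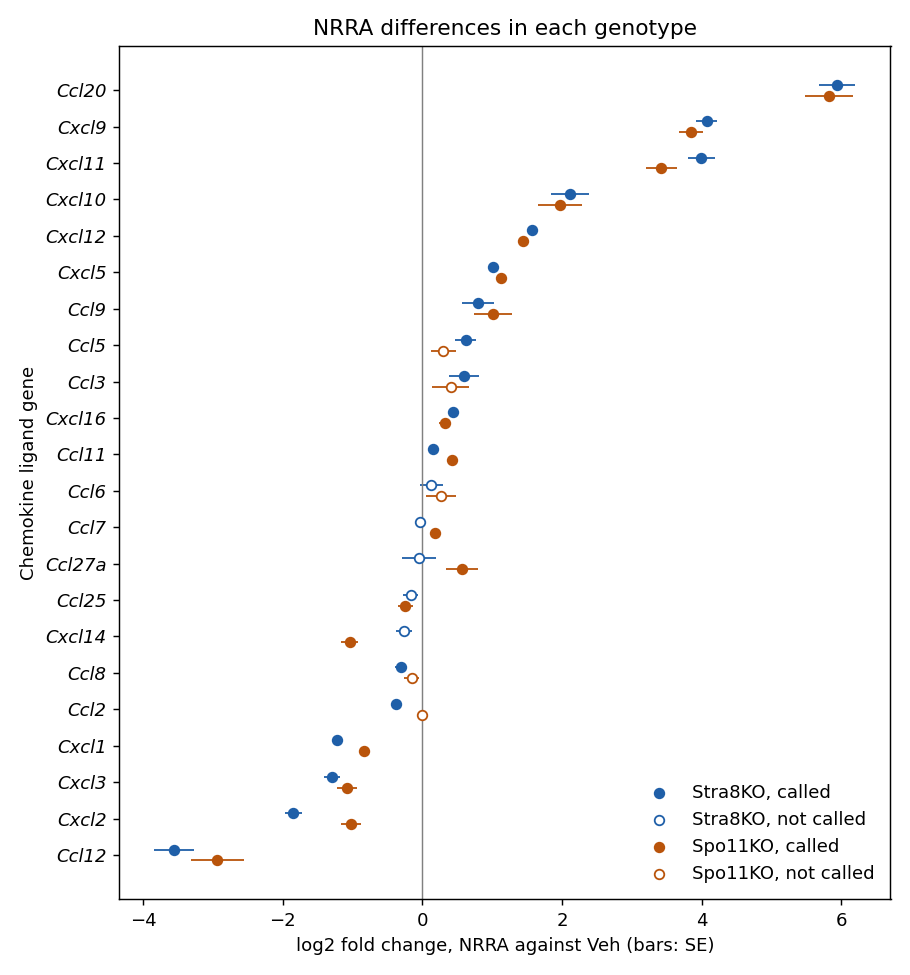
Log2 fold change of NRRA against Veh for Stra8KO (blue) and for libraries labelled Spo11KO (orange) for 22 chemokine ligand genes, with SE bars and filled points where the adjusted p was under 0.05 (2 libraries per group). The points run from 5.94 for Ccl20 to -3.55 for Ccl12, and the genotypes lie close together for most genes but apart for Cxcl14 and Cxcl2.

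Ccl20, the ligand of Ccr6 and an attractant of lymphocytes and dendritic cells, rose most. It was at 0.224 and 0.302 CPM in Stra8KO Veh, 16.0 and 16.6 CPM in Stra8KO NRRA, 0.0842 and 0.131 CPM in Spo11KO Veh and 5.13 and 7.47 CPM in Spo11KO NRRA. Veh libraries held 5 and 6 reads in Stra8KO and 2 and 3 reads in those labelled Spo11KO, against 332 and 360 and 133 and 219 reads under NRRA. All NRRA libraries lay above all Veh libraries. The log2 fold change was 5.94 (SE 0.260, adjusted p 3.34e-25) in Stra8KO. In the libraries labelled Spo11KO, where Veh was at or under 3 counts per library, the ratio of scaled counts was 59.6 (95% interval 25.3 to 185, covering counting error only).

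The interferon-inducible ligands of Cxcr3, namely Cxcl9, Cxcl10 and Cxcl11, attract activated T cells and lie next to each other on chromosome 5. Cxcl9 was at 1.52 and 1.71 CPM in Stra8KO Veh, 28.3 and 26.1 CPM in Stra8KO NRRA, 0.969 and 1.09 CPM in Spo11KO Veh and 13.4 and 16.3 CPM in Spo11KO NRRA. Cxcl11 was at 0.850 and 1.21 CPM in Stra8KO Veh, 16.6 and 16.1 CPM in Stra8KO NRRA, 0.800 and 0.609 CPM in Spo11KO Veh and 7.02 and 8.19 CPM in Spo11KO NRRA, and GENCODE annotates it as a polymorphic pseudogene. Cxcl10 (ENSMUSG00000034855, chromosome 5, 92346638 to 92348889, minus strand, build GRCm38, as for the positions that follow) was at 36.6 and 34.1 CPM in Stra8KO Veh, 129 and 177 CPM in Stra8KO NRRA, 20.8 and 15.5 CPM in Spo11KO Veh and 59.4 and 82.4 CPM in Spo11KO NRRA. For all 3, every NRRA library of either genotype lay above all Veh libraries.

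In Stra8KO the log2 fold changes under NRRA were 4.07 (SE 0.152, adjusted p 4.09e-28) for Cxcl9, 3.99 (SE 0.189, adjusted p 7.35e-24) for Cxcl11 and 2.11 (SE 0.276, adjusted p 0.00424) for Cxcl10. In the libraries labelled Spo11KO they were 3.85 (SE 0.173, adjusted p 8.97e-25), 3.42 (SE 0.218, adjusted p 7.77e-19) and 1.97 (SE 0.313, adjusted p 0.00687), respectively. Cxcl10 varied between libraries, with 153 ± 34.3 CPM in Stra8KO NRRA, and without the second Spo11KO Veh library its change of 1.76 was not called (adjusted p 0.0516). None of the 3 was called for a difference in response between genotypes, with interaction values of 0.22 (SE 0.307), 0.57 (SE 0.375) and 0.15 (SE 0.431).

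Interferon-stimulated genes, a list of 25 such as Irf7 and Mx1, were called higher under NRRA in 25 of 25 cases in Stra8KO, with a median of 1.05. In the libraries labelled Spo11KO 24 were higher and 1 lower, with a median of 0.87. These are TMM values, and the list is not given with fibroblast scaling. Its smallest changes, 0.22 in Stra8KO and -0.21 where labelled Spo11KO, were below the rise of the summed fibroblast markers (0.68 and 0.65). The largest changes were those of Ifit3b (log2 1.71), Gbp2 (1.69) and Mx1 (1.68) in Stra8KO, and of Ifit3b (1.596), Irf7 (1.43) and Ifit3 (1.38) in the libraries labelled Spo11KO. Their share of all counts in Stra8KO was 0.213% and 0.226% with Veh but 0.447% and 0.491% with NRRA. The other genotype had 0.141% and 0.139% with Veh but 0.251% and 0.276% with NRRA. The changes of Cxcl9, Cxcl11 and Cxcl10 were each larger than that of any gene of the list in both genotypes.

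Neutrophil-attracting ligands, which signal through Cxcr2, did not move together. Cxcl1, Cxcl2 and Cxcl3 fell under NRRA and Cxcl5 rose, although all 4 genes lie within 1 stretch of chromosome 5. Cxcl1 (ENSMUSG00000029380, chromosome 5, 90891241 to 90893115, plus strand) was at 318 and 320.1 CPM in Stra8KO Veh, 139 and 134 CPM in Stra8KO NRRA, 122 and 129 CPM in Spo11KO Veh and 70.2 and 69.9 CPM in Spo11KO NRRA. Cxcl2 (ENSMUSG00000058427, chromosome 5, 90903871 to 90905938, plus strand) was at 27.2 and 22 CPM in Stra8KO Veh, 6.90 and 6.83 CPM in Stra8KO NRRA, 8.04 and 7.88 CPM in Spo11KO Veh and 3.59 and 4.23 CPM in Spo11KO NRRA. Cxcl3 (ENSMUSG00000029379, chromosome 5, 90786103 to 90789600, plus strand) was at 20.5 and 18.2 CPM in Stra8KO Veh, 8.74 and 7.06 CPM in Stra8KO NRRA, 8.38 and 8.01 CPM in Spo11KO Veh and 3.82 and 3.92 CPM in Spo11KO NRRA. For each of these genes the NRRA libraries lay below the Veh libraries of the same genotype without overlap.

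Cxcl5 (ENSMUSG00000029371, chromosome 5, 90759360 to 90761624, plus strand) went the other way and was at 232 and 229 CPM in Stra8KO Veh, 471 and 454 CPM in Stra8KO NRRA, 113 and 128 CPM in Spo11KO Veh and 257 and 268 CPM in Spo11KO NRRA. In Stra8KO the log2 fold changes were -1.23 (SE 0.0414, adjusted p 6.85e-30) for Cxcl1, -1.85 (SE 0.119, adjusted p 1.19e-18) for Cxcl2, -1.30 (SE 0.118, adjusted p 2.61e-13) for Cxcl3 and 1.01 (SE 0.0421, adjusted p 2.68e-25) for Cxcl5. Those labelled Spo11KO gave -0.84 (SE 0.0445, adjusted p 6.14e-22), -1.02 (SE 0.145, adjusted p 4.86e-08), -1.08 (SE 0.143, adjusted p 8.65e-09) and 1.12 (SE 0.0439, adjusted p 1.85e-26). Cxcl2 and Cxcl3 are near-identical in part: 69 of the 2259 windows of 100 bases in the Cxcl2 transcripts (3.05%) also occur in Cxcl3. Reads from those windows are uncertain because the setting for reads that match several places was not stated. Cxcl15, another member of this stretch, had at most 10 counts in a library and was not tested.

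The bases before the start of Cxcl1, Cxcl2 and Cxcl3 are printed because these neighbours fell together, beside those of Ccl20 and Cxcl10, which rose. They are RefSeq sequences of build GRCm38.p6, written from 5′ to 3′ on the gene's strand and ending at the base before the start that RefSeq gives. That start is not the GENCODE gene start printed above: it lies inside the GENCODE gene for Cxcl1 and Cxcl2 and before it for Cxcl3. Capitals mark matches to the NF-kappaB consensus on either strand, to the interferon-stimulated response element (GAAA, any 2 bases, then GAAA, either strand) and to the TATA box (TATAAA, gene's strand). The Cxcl1 stretch lies at chr5:90891145-90891244, plus strand, that of Cxcl2 at chr5:90903799-90903898, plus strand, that of Cxcl3 at chr5:90786001-90786100, plus strand, that of Ccl20 at chr1:83116666-83116765, plus strand and that of Cxcl10 at chr5:92348890-92349139, minus strand.
Cxcl1: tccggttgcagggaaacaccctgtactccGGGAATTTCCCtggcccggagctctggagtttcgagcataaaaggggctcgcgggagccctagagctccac
Cxcl2: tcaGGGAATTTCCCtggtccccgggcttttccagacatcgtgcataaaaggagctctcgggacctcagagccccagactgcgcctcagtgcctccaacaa
Cxcl3: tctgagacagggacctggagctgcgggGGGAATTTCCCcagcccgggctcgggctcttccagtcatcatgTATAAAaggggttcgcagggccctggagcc
Ccl20: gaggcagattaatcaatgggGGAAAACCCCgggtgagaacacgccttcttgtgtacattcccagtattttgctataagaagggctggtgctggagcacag
Cxcl10: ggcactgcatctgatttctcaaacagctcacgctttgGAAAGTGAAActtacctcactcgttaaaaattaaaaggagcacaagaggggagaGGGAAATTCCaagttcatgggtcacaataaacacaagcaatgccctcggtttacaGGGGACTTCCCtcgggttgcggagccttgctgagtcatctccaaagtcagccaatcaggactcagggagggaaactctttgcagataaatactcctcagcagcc

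Cxcl1, Cxcl2 and Cxcl3 shared the same 11 capital bases, in which matches on both strands overlap by all but 1 base, at 71, 97 and 73 bases before the RefSeq start. Ccl20 held a match on the opposite strand, and Cxcl10 held matches at 159 and around 104 bases before the start together with the interferon-stimulated response element at 213 bases. Of the 24 tested members, 16 had a promoter in the RefSeq table and 8 (Ccl2, Ccl11, Ccl7, Cxcl5, Cxcl16, Cxcl11, Ccl5 and Ccl4) were not matched. Within 250 bases before the start, the NF-kappaB consensus stood in 6 of the 16 (Cxcl1, Cxcl2, Cxcl3, Cxcl10, Ccl20 and Ccl9) and in 7.25% of all 32851 promoters. The interferon-stimulated response element stood in Cxcl10 and Cxcl14 and in 2.98% of all promoters, the gamma-interferon element TTCNNNGAA (either strand) in Cxcl14 and in 7.02%, and TATAAA in 5 members (Ccl8, Cxcl9, Cxcl3, Ccl9 and Ccl12) and in 7.59%. Genes with the NF-kappaB match thus included members that fell and members that rose under NRRA, and a match is not evidence of binding.

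Targets of NF-kappaB other than chemokines were likewise split. Of 23 tested genes of a 24-gene list, 8 were called higher and 8 lower in Stra8KO, while the other genotype had 9 higher and 8 lower, with medians of 0.00 and -0.03. The shares of all tested genes were 21.6% higher and 20.2% lower in Stra8KO, and 24.5% and 25.5% in the other genotype. Csf2, a growth factor for granulocytes and macrophages, fell (log2 -2.91 and -2.75), and so did Lif, a cytokine of the interleukin-6 family (-2.24 and -1.70). Ptgs2, the inducible cyclooxygenase, fell as well (-1.81 and -1.43). Traf1, an adaptor of TNF receptors, was at -0.51 (SE 0.399, not called) and fell in the libraries labelled Spo11KO (-1.75). Saa3, an acute-phase protein, rose in both (1.61 and 1.65), from 607 ± 32.7 CPM to 1850 ± 35.6 CPM in Stra8KO, and was added after its values were seen, as the list gene that rose most.

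Cxcl12 (ENSMUSG00000061353, chromosome 6, 117168535 to 117181367, plus strand), the niche ligand of Cxcr4 and Ackr3, rose under NRRA in both genotypes. It was at 78.1 and 76.2 CPM in Stra8KO Veh, 236 and 223 CPM in Stra8KO NRRA, 40.3 and 40.8 CPM in Spo11KO Veh and 113 and 107 CPM in Spo11KO NRRA. The log2 fold change was 1.57 (SE 0.0468, adjusted p 4.04e-32) in Stra8KO and 1.44 (SE 0.0511, adjusted p 5.73e-29) where labelled Spo11KO, and the response did not differ between them beyond its error (interaction 0.13, SE 0.0697, adjusted p 0.188). Its 2 receptors went in opposite directions. Cxcr4, which transmits the signal, was at 4.56 and 5.14 CPM in Stra8KO Veh, 2.17 and 2.68 CPM in Stra8KO NRRA, 23.0 and 19.6 CPM in Spo11KO Veh and 5.05 and 4.81 CPM in Spo11KO NRRA, and it fell in both genotypes, with log2 values of -0.99 (SE 0.189, adjusted p 2.03e-05) and -2.11 (SE 0.122, adjusted p 1.72e-20). Ackr3, which takes the ligand up, was at 17.0 and 15.8 CPM in Stra8KO Veh, 50.9 and 52.5 CPM in Stra8KO NRRA, 11.1 and 9.88 CPM in Spo11KO Veh and 19.7 and 20.2 CPM in Spo11KO NRRA, and it rose, with 1.65 (SE 0.0791, adjusted p 1.17e-23) and 0.93 (SE 0.0913, adjusted p 2.21e-12).

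The receptor responses differed between genotypes. Subtracting the log2 fold change of the libraries labelled Spo11KO from that of Stra8KO gave 1.12 (SE 0.235, adjusted p 0.000193) for Cxcr4 and 0.73 (SE 0.123, adjusted p 6.84e-06) for Ackr3. Cxcr4 was the member of the receptor list with the largest genotype difference under Veh, at -2.14 (log2, Stra8KO against labelled Spo11KO), where the germ cell markers were also lower. Under NRRA Cxcr4 fell in both genotypes, whereas the germ cell markers were called higher in 8 of 10 cases and lower in 0 in Stra8KO, and higher in 7 and lower in 2 where labelled Spo11KO. Cxcl12 and Ackr3 were higher in Stra8KO under Veh (0.93 and 0.65), as were the fibroblast markers. Which cells held each transcript was not tested.

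**Figure D3:**
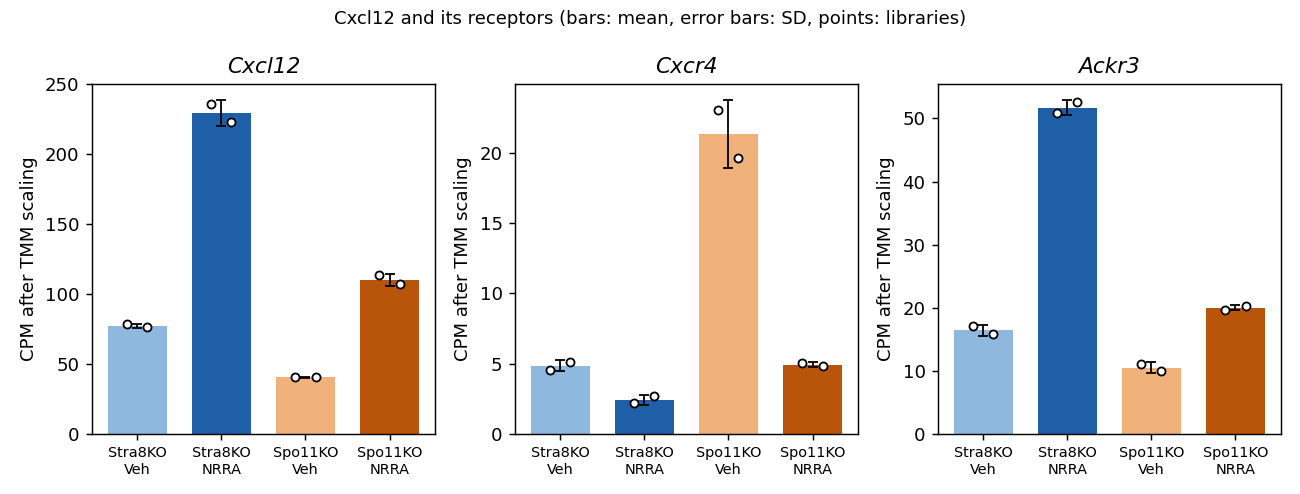
CPM after TMM scaling of Cxcl12 and of its receptors Cxcr4 and Ackr3 in the 4 groups, with bars for the mean, error bars for the SD and points for the 2 libraries. Cxcl12 and Ackr3 are higher under NRRA in both genotypes, while Cxcr4 is highest in Spo11KO Veh and lower under NRRA.

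Among the other receptors few were measurable. Of 23 chemokine receptors and scavengers, 10 were tested, of which 2 were called higher and 2 lower under NRRA in Stra8KO, while the other genotype had 1 higher and 3 lower. Of all tested genes 21.6% were called higher and 20.2% lower in Stra8KO, and 24.5% and 25.5% in the other genotype, so these counts show nothing particular to the receptors. The receptors of the ligands that rose most were close to 0: Ccr6, the receptor of Ccl20, averaged at most 0.0211 CPM in any group and Cxcr3, the receptor of Cxcl9, Cxcl10 and Cxcl11, at most 0.0579 CPM. Cxcr2, the receptor of the neutrophil attractants, averaged at most 0.0727 CPM, and Ccr2, the receptor of Ccl2 and Ccl7, at most 0.105 CPM. Ccr1, a receptor of Ccl3, Ccl5 and Ccl7, was lower under NRRA in both genotypes, with -2.12 (SE 0.712, adjusted p 0.0133) and -2.63 (SE 0.882, adjusted p 0.011), at means of 0.623 CPM or less. Ccrl2, a non-signalling receptor, rose in Stra8KO (1.43, SE 0.382, adjusted p 0.00192), and Ccr10, a receptor of Ccl27 and Ccl28, fell in the libraries labelled Spo11KO (-1.34, SE 0.467, adjusted p 0.0146).

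Ligands that attract monocytes and eosinophils included the genes of highest level. Under NRRA Ccl12 fell with either scaling in both genotypes, and Ccl2 and Ccl8 were called lower with either in Stra8KO. Whether and in which direction the others were called, and Ccl2 and Ccl8 in the libraries labelled Spo11KO, depended on the scaling. With fibroblast scaling Ccl2 (-1.06 in Stra8KO and -0.65 where labelled Spo11KO), Ccl8 (-0.98 and -0.80), Ccl7 (-0.71 and -0.47) and Ccl11 (-0.53 and -0.23) were all called lower, and the TMM values follow. Ccl2 (ENSMUSG00000035385, chromosome 11, 82035571 to 82037453, plus strand), the main monocyte attractant, was at 885 and 907 CPM in Stra8KO Veh, 663 and 712 CPM in Stra8KO NRRA, 359 and 368 CPM in Spo11KO Veh and 351 and 376 CPM in Spo11KO NRRA. Ccl7, which shares the receptor Ccr2, was at 381 and 392 CPM in Stra8KO Veh, 374 and 382 CPM in Stra8KO NRRA, 145 and 154 CPM in Spo11KO Veh and 175 and 164 CPM in Spo11KO NRRA. Ccl11, also called eotaxin, was at 403 and 449 CPM in Stra8KO Veh, 479 and 464 CPM in Stra8KO NRRA, 168 and 194 CPM in Spo11KO Veh and 241 and 245 CPM in Spo11KO NRRA. Ccl2 was lower under NRRA in both Stra8KO libraries and overlapped between media in the libraries labelled Spo11KO, whereas Ccl7 overlapped in Stra8KO.

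The log2 fold changes of NRRA in Stra8KO were -0.38 (SE 0.0378, adjusted p 3.29e-12) for Ccl2, -0.03 (SE 0.0390, adjusted p 0.553) for Ccl7 and 0.15 (SE 0.0563, adjusted p 0.0463) for Ccl11. Those labelled Spo11KO gave 0.00 (SE 0.0386, adjusted p 0.986), 0.18 (SE 0.0413, adjusted p 0.000229) and 0.43 (SE 0.0588, adjusted p 1.2e-05). Ccl8, an attractant of monocytes and T cells, was at 64.3 and 76.7 CPM in Stra8KO Veh, 56.95 and 56.96 CPM in Stra8KO NRRA, 33.0 and 29.8 CPM in Spo11KO Veh and 31.6 and 25.1 CPM in Spo11KO NRRA. It was called lower in Stra8KO (-0.30, SE 0.0917, adjusted p 0.0143) and not in the libraries labelled Spo11KO (-0.15, SE 0.105, adjusted p 0.258), and its Stra8KO value was not called without the second Veh library (-0.18), without the first NRRA library (-0.30) or without the second (-0.31). In the libraries labelled Spo11KO, Ccl8 was called lower without the first NRRA library (-0.33), and Ccl2 was called higher with total counts as library size (0.09). The Ccl11 value in Stra8KO lay at the threshold: it was not called by DESeq2 (0.12, adjusted p 0.634), nor without the first Stra8KO Veh library (0.07), either Stra8KO NRRA library (0.13 and 0.17) or either Spo11KO NRRA library (0.13 and 0.14).

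Ccl12 (ENSMUSG00000035352, chromosome 11, 82101845 to 82103400, plus strand), a monocyte attractant encoded between Ccl11 and Ccl8, fell further than any other member. It was at 6.62 and 5.64 CPM in Stra8KO Veh, 0.386 and 0.646 CPM in Stra8KO NRRA, 1.85 and 1.83 CPM in Spo11KO Veh and 0.270 and 0.205 CPM in Spo11KO NRRA. Under NRRA it was below 1 CPM in every library, and all of these values lay below those of the Veh libraries. The log2 fold changes were -3.55 (SE 0.285, adjusted p 3.61e-15) in Stra8KO and -2.94 (SE 0.379, adjusted p 4.61e-09) where labelled Spo11KO. Its neighbour Ccl11 was higher under NRRA in the libraries labelled Spo11KO with TMM scaling but called lower there with fibroblast scaling (-0.23, adjusted p 2.07e-05).

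Macrophage inflammatory ligands and lymphocyte ligands were measured at lower levels. Ccl5, which attracts T cells and monocytes, was at 6.26 and 6.95 CPM in Stra8KO Veh, 8.54 and 11.7 CPM in Stra8KO NRRA, 3.33 and 3.74 CPM in Spo11KO Veh and 4.75 and 3.99 CPM in Spo11KO NRRA. Ccl6 was at 5.19 and 7.503 CPM in Stra8KO Veh, 6.85 and 6.92 CPM in Stra8KO NRRA, 2.27 and 2.92 CPM in Spo11KO Veh and 3.55 and 2.73 CPM in Spo11KO NRRA, and its libraries overlapped between media in both genotypes. Ccl3 was at 3.09 and 2.32 CPM in Stra8KO Veh, 4.44 and 3.79 CPM in Stra8KO NRRA, 1.47 and 1.35 CPM in Spo11KO Veh and 2.16 and 1.604 CPM in Spo11KO NRRA. Ccl5 and Ccl3 were higher in every NRRA library than in the Veh libraries of the same genotype. Ccl9 was at 2.01 and 2.12 CPM in Stra8KO Veh, 3.81 and 3.37 CPM in Stra8KO NRRA, 0.842 and 1.26 CPM in Spo11KO Veh and 2.16 and 2.08 CPM in Spo11KO NRRA, and its NRRA values lay above the Veh values of the same genotype.

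In Stra8KO, Ccl5 (0.62, SE 0.150, adjusted p 0.00059), Ccl3 (0.60, SE 0.218, adjusted p 0.0241) and Ccl9 (0.80, SE 0.234, adjusted p 0.00444) were called higher, and Ccl6 was not (0.13, SE 0.167, adjusted p 0.579). In the libraries labelled Spo11KO only Ccl9 of these was called (1.01, SE 0.273, adjusted p 0.00162), with 0.30 (SE 0.180) for Ccl5, 0.40 (SE 0.264) for Ccl3 and 0.27 (SE 0.210) for Ccl6. These are TMM values. Fibroblast scaling left Ccl9 uncalled in Stra8KO (0.12, adjusted p 0.658) and where labelled Spo11KO (0.36, adjusted p 0.245). On that scale Ccl5 (-0.05) and Ccl3 (-0.08) were not called in Stra8KO, while Ccl6 was called lower there (-0.55). DESeq2 called none of Ccl5, Ccl3 and Ccl9 in Stra8KO (adjusted p 0.0581, 0.374 and 0.159). Leaving out a library also ended calls: Ccl5 without the second Stra8KO NRRA library (0.37), Ccl3 without the second Stra8KO Veh library (0.41) or the first Stra8KO NRRA library (0.48), and Ccl9 without the first Stra8KO NRRA library (0.71) or, in the other genotype, without the first Spo11KO Veh library (0.75). Ccl4, a relative of Ccl3, stayed between 0.0772 and 1.02 CPM and was not called in either genotype (0.57, SE 0.519, and 1.30, SE 0.733), although it was called in the libraries labelled Spo11KO without the first NRRA library (2.06).

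Cxcl16, a ligand of Cxcr6 that is also made as a membrane-bound form, was at 35.6 and 33.8 CPM in Stra8KO Veh, 46.0 and 48.6 CPM in Stra8KO NRRA, 16.9 and 18.7 CPM in Spo11KO Veh and 22.3 and 22.1 CPM in Spo11KO NRRA. With TMM scaling it rose in both genotypes, by 0.45 (SE 0.0695, adjusted p 4.75e-07) in Stra8KO and 0.32 (SE 0.0802, adjusted p 0.00069) where labelled Spo11KO. With fibroblast marker counts as library size it was called lower in both (-0.23, adjusted p 0.00414, and -0.33, adjusted p 0.000295). Cxcl14, an epithelial and stromal chemokine, was at 15.4 and 12.1 CPM in Stra8KO Veh, 11.1 and 12 CPM in Stra8KO NRRA, 12.3 and 11.3 CPM in Spo11KO Veh and 5.87 and 5.59 CPM in Spo11KO NRRA. With TMM scaling it fell in the libraries labelled Spo11KO (-1.04, SE 0.127, adjusted p 9.99e-10) and was not called in Stra8KO (-0.26, SE 0.117, adjusted p 0.0667). In Stra8KO it was called without the second Stra8KO Veh library (-0.42), the second Spo11KO Veh library (-0.28) or the second Spo11KO NRRA library (-0.28). DESeq2 size factors (-0.29, adjusted p 0.0408) or a fit of only the compared libraries (-0.27, adjusted p 0.0489) also gave a call there. Cxcl14 was called lower in both genotypes with fibroblast scaling (-0.94 in Stra8KO and -1.69 where labelled Spo11KO).

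Ccl25, a thymic and gut chemokine, was at 13.9 and 15.4 CPM in Stra8KO Veh, 12.3 and 13.8 CPM in Stra8KO NRRA, 13.6 and 16.0 CPM in Spo11KO Veh and 12.6 and 12.4 CPM in Spo11KO NRRA. With fibroblast scaling it was called lower under NRRA in both genotypes (-0.84 and -0.89). With TMM scaling its change of -0.24 (SE 0.102, adjusted p 0.0433) in the libraries labelled Spo11KO was not called by DESeq2 (adjusted p 0.387), nor without the second Spo11KO Veh library (-0.14) or either Spo11KO NRRA library. Ccl27a, known from skin, was at 2.15 and 2.77 CPM in Stra8KO Veh, 2.41 and 2.31 CPM in Stra8KO NRRA, 2.44 and 1.61 CPM in Spo11KO Veh and 3.28 and 2.76 CPM in Spo11KO NRRA. Its change of 0.57 (SE 0.230, adjusted p 0.0361) in the libraries labelled Spo11KO was not called by DESeq2 (adjusted p 0.363), nor without the second Spo11KO Veh library (0.29) or the first Spo11KO NRRA library. In Stra8KO the values were -0.16 (SE 0.108) for Ccl25 and -0.05 (SE 0.246) for Ccl27a. Ccl28, a mucosal chemokine, stayed between 0.126 and 0.705 CPM, with -0.11 (SE 0.485) in Stra8KO and 1.23 (SE 0.586) in the libraries labelled Spo11KO.

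Some of these counts are uncertain. Of the 2991 windows of 100 bases in the transcripts of Ccl27a, 26.5% also occur in Ccl27b or in related gene models, and 2 further copies of Ccl27a on unplaced scaffolds held at most 1 count. The gene bodies of Ccl2, Cxcl10, Cxcl11, Cxcl16, Ccl25, Ccl6 and Ccl27a overlap a gene on the opposite strand (Gm17268, Art3, Art3 and Gm2673, Zmynd15, Elavl1, E230016K23Rik and Il11ra1, respectively), and whether the counting used strand was not stated.

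To compare the genotypes, Stra8KO was set against the libraries labelled Spo11KO in each medium. Under Veh 18 of the 24 members were higher in Stra8KO and 0 lower, where 31.6% of all tested genes were called higher and 30.7% lower. Under NRRA 19 were higher and 0 lower, against 35% and 28.9% of all tested genes. At an unadjusted p under 0.05, 20 and 21 members were higher and 0 lower. DESeq2, run on all genes with a count, called 15 and 18 of 32 members higher and 0 lower. It called 24.6% and 25.3% of all its tested genes in either direction, so its counts stand against those shares. With total counts as library size, 1 member (Ccl27a) was lower under NRRA. The members' median log2 difference was 1.07 under Veh and 1.02 under NRRA, beside 0.00 and 0.07 over all tested genes. The fibroblast markers summed together were higher in Stra8KO by 0.93 under Veh and 0.95 under NRRA, a shift of similar size, so genotype and fibroblast share cannot be told apart in this design.

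Scaled to the fibroblast markers, the split became 8 higher and 3 lower under Veh and 2 higher and 3 lower under NRRA, while 75.3% of all tested genes were called in either direction in each medium. Under Veh the members still called higher in Stra8KO were Cxcl2 (0.70), Ccl12 (0.81), Ccl7 (0.44), Cxcl1 (0.41), Ccl2 (0.37), Cxcl3 (0.31), Ccl11 (0.30) and Ccl8 (0.23), all attractants of monocytes, eosinophils or neutrophils. Those called lower were Ccl25 (-0.95), Cxcl14 (-0.70) and Ccl27a (-0.66). Under NRRA only Ccl20 (0.41) and Ccl7 (0.20) remained higher with this scaling, and Ccl25 (-0.90), Ccl27a (-1.30) and Cxcl5 (-0.14) were lower. Cxcl12, Cxcl16, Ccl3 and Cxcl5 were within 0.04 of 0 under Veh on this scale. With TMM scaling Ccl25 did not differ between genotypes beyond its error under Veh (-0.02, SE 0.104, adjusted p 0.861) or NRRA (0.06, SE 0.106, adjusted p 0.656).

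**Figure D4:**
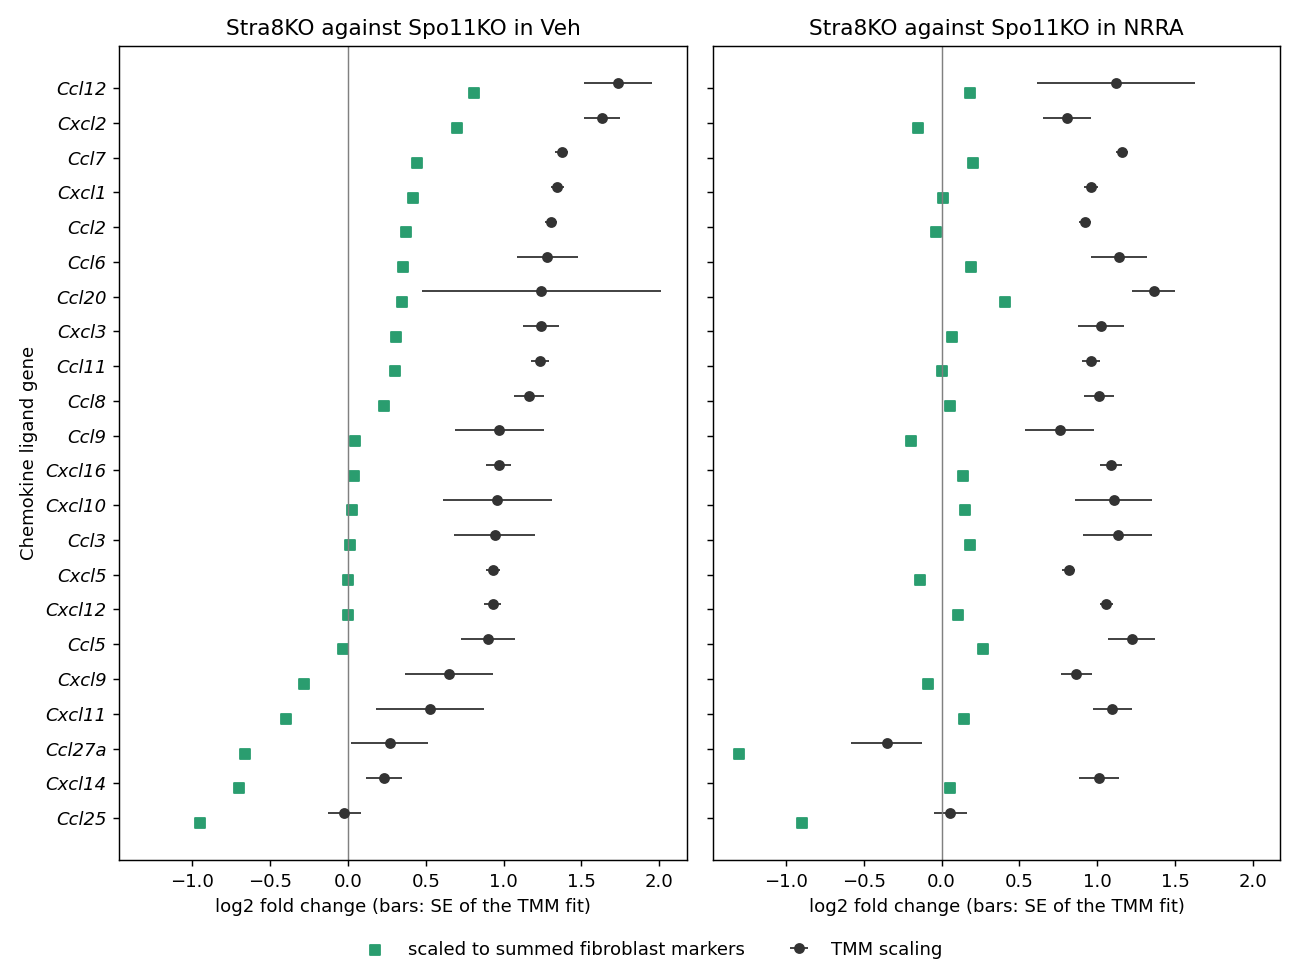
Log2 fold change of Stra8KO against the libraries labelled Spo11KO under Veh (left) and NRRA (right) for 22 chemokine ligand genes, with TMM scaling (circles, SE bars) and with the summed fibroblast markers as library size (squares, no error bars). The circles lie near 1 for most genes and the squares near 0, with Ccl12 at 1.74 and 0.81 under Veh and Ccl25 at -0.02 and -0.95.

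With TMM scaling, the highest genotype differences under Veh were those of Ccl4 (1.89, SE 0.709, adjusted p 0.019), Ccl12 (1.74, SE 0.220, adjusted p 1.73e-09), Cxcl2 (1.63, SE 0.114, adjusted p 1.16e-17), Ccl28 (1.61, SE 0.582, adjusted p 0.0147) and Ccl7 (1.37, SE 0.0408, adjusted p 1.67e-31). Cxcl1 differed by 1.35 (SE 0.0414, adjusted p 5.11e-31), Ccl2 by 1.30 (SE 0.0387, adjusted p 1.56e-31), Ccl6 by 1.28 (SE 0.194, adjusted p 1.3e-07), Cxcl3 by 1.24 (SE 0.115, adjusted p 2.29e-13), Ccl11 by 1.24 (SE 0.0587, adjusted p 7.51e-12) and Ccl8 by 1.16 (SE 0.0975, adjusted p 3.29e-08). Smaller differences were called for Ccl9, Cxcl16, Ccl3, Cxcl5, Cxcl12 and Ccl5, with 0.97 (SE 0.286, adjusted p 0.0029) for Ccl9, 0.97 (SE 0.0781, adjusted p 2.12e-15) for Cxcl16, 0.94 (SE 0.258, adjusted p 0.00145) for Ccl3, 0.93 (SE 0.0445, adjusted p 3.25e-23) for Cxcl5, 0.93 (SE 0.0537, adjusted p 1.22e-20) for Cxcl12 and 0.90 (SE 0.175, adjusted p 1.6e-05) for Ccl5. Cxcl9 (0.65, SE 0.282, adjusted p 0.0434) was near the threshold and was not called by DESeq2 (adjusted p 0.124), with total counts (0.53) or without any 1 of the 4 Veh libraries (0.56 to 0.73). Of the members at low levels, Ccl28, Ccl4 and Ccl9 were not called by DESeq2 (adjusted p 0.157, 0.163 and 0.0504).

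Cxcl10 (0.96, SE 0.349, adjusted p 0.0749), Cxcl11 (0.53, SE 0.344, adjusted p 0.183), Cxcl14 (0.23, SE 0.115, adjusted p 0.0764) and Ccl27a (0.27, SE 0.248, adjusted p 0.359) were not called under Veh. Cxcl10 was called there by DESeq2 (adjusted p 0.00296) and when only the Veh libraries were fitted (0.95). For Ccl20 under Veh, 11 reads in Stra8KO against 5 gave a ratio of 2.43 (95% interval 0.78 to 8.94). Leaving out 1 library also ended calls. Ccl4 was not called without either Stra8KO Veh library (1.97 and 1.80) or the first Spo11KO Veh library (1.36). The call of Ccl28 was lost without the second Stra8KO Veh library (1.52) or the first Spo11KO Veh library (1.11). Ccl3 lost its call without the first Stra8KO Veh library (0.71) and Ccl9 without the first Spo11KO Veh library (0.70). Cxcl14 was called without the second Stra8KO Veh library (0.39).

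Under NRRA the leading genotype differences were those of Ccl20 (1.36, SE 0.137, adjusted p 2.38e-12), Ccl5 (1.22, SE 0.153, adjusted p 1.32e-09), Ccl7 (1.16, SE 0.0401, adjusted p 3.34e-29), Ccl6 (1.14, SE 0.179, adjusted p 2.62e-07) and Ccl3 (1.13, SE 0.222, adjusted p 1.6e-05). The interferon-inducible ligands were also higher in Stra8KO there, with 1.11 (SE 0.247, adjusted p 0.0167) for Cxcl10, 1.10 (SE 0.125, adjusted p 8.88e-11) for Cxcl11 and 0.87 (SE 0.0980, adjusted p 7.49e-11) for Cxcl9. Cxcl10 was not called without the second Stra8KO NRRA library (0.86) or the first Spo11KO NRRA library (0.89), nor when only the NRRA libraries were fitted (1.03, adjusted p 0.0953). The remaining called members were between 0.76 for Ccl9 (not called by DESeq2, adjusted p 0.119) and 1.09 for Cxcl16, with Cxcl12 at 1.06, Cxcl3 at 1.02, Ccl8 at 1.01, Cxcl14 at 1.01, Cxcl1 at 0.96, Ccl11 at 0.96, Ccl2 at 0.92, Cxcl5 at 0.82 and Cxcl2 at 0.81.

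Members not called under NRRA were Ccl25, Ccl27a (-0.35, SE 0.228, adjusted p 0.176), Ccl28 (0.27, SE 0.485, adjusted p 0.649), Ccl4 (1.16, SE 0.530, adjusted p 0.0524) and Ccl12 (1.12, SE 0.509, adjusted p 0.0505). Ccl27a was called with total counts as library size (-0.56). Ccl12 was called without the first Stra8KO NRRA library (1.44), and Ccl4 without the second Spo11KO NRRA library (3.37).

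Whether the response to NRRA itself differed between genotypes was tested by subtracting the log2 fold change of the libraries labelled Spo11KO from that of Stra8KO. Of the 24 members, 1 was called higher and 5 lower, against 14.8% and 10.3% of all tested genes, so the share of members called (25.0%) was close to that of all tested genes (25.1%). Cxcl14 was the 1 higher (0.78, SE 0.173, adjusted p 0.000437), at -0.26 in Stra8KO and -1.04 where labelled Spo11KO. Cxcl2 (-0.83, SE 0.192, adjusted p 0.000775) and Cxcl1 (-0.38, SE 0.0606, adjusted p 1.65e-06) fell further in Stra8KO, and Ccl2 (-0.38, SE 0.0540, adjusted p 1.45e-07) was at -0.38 there and at 0.00 in the other genotype. Ccl11 (-0.28, SE 0.0814, adjusted p 0.0193) and Ccl7 (-0.21, SE 0.0568, adjusted p 0.0034) had smaller effects in Stra8KO with TMM scaling. With fibroblast scaling both genes instead fell further in Stra8KO (Ccl11 -0.53 against -0.23, Ccl7 -0.71 against -0.47). The same 6 members were called with fibroblast scaling. Ccl11 lost its call under DESeq2 (adjusted p 0.15) and without the second Stra8KO Veh library (-0.20), either Stra8KO NRRA library (-0.30 and -0.26) or either Spo11KO NRRA library (-0.29 and -0.26), while Cxcl5 was called without the second Spo11KO Veh library (-0.21) and Ccl8 without the second Spo11KO NRRA library (-0.31). The median interaction was -0.15 over the members and 0.01 over all tested genes.

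Chemokines with other names were few. Cx3cl1, a membrane-anchored chemokine, was at 20.3 and 17.7 CPM in Stra8KO Veh, 30.0 and 31.9 CPM in Stra8KO NRRA, 13.2 and 11.9 CPM in Spo11KO Veh and 17.7 and 15.3 CPM in Spo11KO NRRA. It rose under NRRA by 0.70 (SE 0.0883, adjusted p 3.12e-09) in Stra8KO and 0.39 (SE 0.0976, adjusted p 0.000686) where labelled Spo11KO. The platelet chemokines were low: Ppbp averaged 0.856 to 3.84 CPM and rose in Stra8KO (0.81, SE 0.250, adjusted p 0.00682), and Pf4 averaged 0.279 to 1.37 CPM and was not called in either genotype. Xcl1 had no count. All 3 tested genes were higher in Stra8KO in both media (Cx3cl1 0.60 and 0.91, Ppbp 1.34 and 1.499, Pf4 2.28 and 1.12).

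Markers of leukocytes, which are classical sources and targets of these ligands, were low. The 17 macrophage markers summed to between 0.00568% and 0.00996% of all counts, and group means ran from 0.0364 CPM (C1qb) to 33.0 CPM (Lyz2). Lyz2 (9.22 to 33.0 CPM), Csf1r (12.9 to 16.1), Mertk (7.67 to 10.8), Cd68 (3.25 to 9), Cd14 (2.80 to 7.14), Adgre1 (2.16 to 6.89) and Mpeg1 (2.16 to 21.2) were above 1 CPM in every group, as was Laptm5 (1.22 to 2.86), while C1qa, C1qb, C1qc, Itgam, Fcgr1 and Tyrobp stayed under 1 CPM in every group. Under NRRA 3 of the 15 tested were called higher and 1 lower in Stra8KO (Mpeg1 1.86, Fcgr1 1.56 and Lyz2 0.56 leading), while the other genotype had 3 higher and 5 lower (Mrc1 -2.80, Mpeg1 2.17 and Cd68 -1.24 leading). For NRRA against Veh, 21.6% of all tested genes were called higher and 20.2% lower in Stra8KO, and 24.5% and 25.5% in the other genotype. Between genotypes 7 of the 15 markers were higher and 2 lower in Stra8KO under Veh, and 11 higher and 0 lower under NRRA. Of all tested genes 31.6% were higher and 30.7% lower there under Veh, and 35% and 28.9% under NRRA. Their part in the chemokine values was not tested. The 12 lymphocyte markers summed to 59 to 112 counts per library, 8 endothelial markers to 238 to 311 counts and 8 Sertoli cell markers to 412 to 1057 counts. The fibroblast markers held 330524 to 940257 counts.

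The remaining chemokine ligands were at or near 0 counts. Members with a count that did not pass the filter were Ccl17 (at most 15 counts in a library), Cxcl15 (10), Ccl22 (7), Cxcl17 (3), Ccl1 (3), Cxcl13 (2), Ccl24 (1) and a scaffold copy of Ccl27a (1). The 13 entries with no count were Ccl26, Ccl19 (2 copies), its pseudogenes Ccl19-ps1 and Ccl19-ps3, Ccl21a, Ccl21b and Ccl21c (2 copies each), Ccl27b and the other scaffold copy of Ccl27a. These include the lymphoid-tissue ligands of Ccr7 (Ccl19 and the Ccl21 genes). A count of 0 allows up to 3 counts per library, and for near-identical copies such as Ccl21a, Ccl21b and Ccl21c it was not stated how multiply matching reads were counted.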

How the data were processed

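Bulk mRNA of 8 SSC cultures was sequenced in 2 libraries per group. The authors deposited raw counts of reads per gene. The submitters' processing notes name bcl2fastq, STAR 2.6.1c, featureCounts 1.6.4 and build mm10, while the annotation release and the settings for strand and for reads that match several places are not given in the sources used here. The table mapped 1 column to each library. Of its identifiers, 55240 (99.67%) were in GENCODE release M21 (GRCm38), which gave positions and exonic lengths, and promoters came from RefSeq (GRCm38.p6).

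Genes were kept by filterByExpr (20588 genes, 99.88% of counts), scaled by TMM and fitted with a group-means model to all 8 libraries in edgeR 4.0.16 (R 4.3.3), with the robust quasi-likelihood F test (two-sided) and Benjamini-Hochberg adjustment. The common biological coefficient of variation was 3.39%. SE was obtained as |log2 fold change| over the root of F. The fit was tested on simulated data with known changes. Alternatives were DESeq2 1.42.0, its size factors, total counts, fibroblast marker counts as library size, other filters and thresholds, the compared libraries alone, a replicate block and leaving out each library. Depth was 20960794 to 27038868 counts, and intervals and floors of 3 counts cover counting error only.

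The members and the lists of markers, receptors, NF-kappaB and interferon genes were chosen with earlier results of these data known. All tested members are named, those with a mean of at least 1 CPM with every library's value, and from each list up to 3 called genes of largest change, with Cxcr4 and Ackr3. Figures were drawn with matplotlib 3.10.9.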

Additional observations from a re-analysis of the deposited data

Results flagged for a closer look

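For 6 chemokine ligands the response to NRRA differed between the genotypes, by edgeR's test of the difference itself (log2 fold change in Stra8KO less that of the libraries labelled Spo11KO). These were 6 of 24 tested members (25.0%), close to the 25.1% of all tested genes called in this comparison, so the count says nothing particular about chemokine ligands. The difference was 0.78 for Cxcl14 and -0.83 for Cxcl2 on the log2 scale, followed by Cxcl1 (-0.38), Ccl2 (-0.38), Ccl11 (-0.28) and Ccl7 (-0.21). The Ccl11 difference depended on single libraries, as given above. Groups of 2 libraries are too small for a test of single outlying libraries.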

How the results depend on the processing

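The number of members called stayed within 1.5 times the reported count for DESeq2 size factors, total counts, other filters on low counts, DESeq2's test, the compared libraries alone and an adjusted p under 0.01, in the comparisons where each could be run. With a fold of at least 2 required as well, edgeR called 10, 11, 11, 12 and 0 members, where 10.5%, 12.3%, 16.2%, 18.5% and 5.71% of all tested genes were called. These values are for NRRA in Stra8KO, NRRA in the libraries labelled Spo11KO, the genotypes under Veh, the genotypes under NRRA and the interaction. For the interaction 6 of the 24 members had an unadjusted p under 0.05 in edgeR. Without the fold limit DESeq2 called 5 of 32 members there, and 7.01% of all its tested genes. With fibroblast marker counts as library size, 11 and 5 members were called between genotypes under Veh and NRRA (75.3% of all tested genes in each). This scaling shifts the values by 0.65 to 0.95 (log2), and the fold changes called with either scaling that turned negative under NRRA were Ccl11 (-0.53), Cxcl16 (-0.23), Ccl5 (-0.052), Ccl6 (-0.55) and Ccl3 (-0.081) in Stra8KO, and Ccl2 (-0.65), Ccl11 (-0.23), Ccl7 (-0.47), Cxcl16 (-0.33) and Ccl27a (-0.084) in the libraries labelled Spo11KO. Between genotypes they were Cxcl12 (-0.00061), Cxcl9 (-0.28), Cxcl14 (-0.70), Ccl5 (-0.031) and Ccl27a (-0.66) under Veh, and Ccl2 (-0.036), Cxcl5 (-0.14), Ccl25 (-0.90), Cxcl9 (-0.090), Cxcl2 (-0.15) and Ccl9 (-0.20) under NRRA. Called with neither scaling, Ccl4 (-0.099) in Stra8KO, Ccl5 (-0.35), Ccl6 (-0.38) and Ccl3 (-0.25) in the libraries labelled Spo11KO, Cxcl11 under Veh (-0.40) and Ccl28 under NRRA (-0.68) also turned negative. Fits without 1 library tested 25 or 26 members rather than 24 and left a group of 1 library, assumed to vary like the others. Their counts of called members are therefore not set beside those of the full fit. Across these fits the log2 fold change under NRRA ranged from 1.53 to 1.61 for Cxcl12 in Stra8KO. For Ccl4 in the libraries labelled Spo11KO it ranged from -0.93 to 2.08. With a replicate block 17, 17, 18, 20 and 6 members were called, in the order of comparisons given above. The shares of all tested genes called there were 41.5%, 49.6%, 62%, 63.7% and 25%. Over all tested genes, the deviations of same-numbered libraries from their group means correlated at -0.0271 to 0.0558 between groups. Whether smaller sets of genes varied with the library number was not tested. The interferon-stimulated genes summed to 0.447% and 0.491% of all counts in the first and second Stra8KO NRRA libraries. In those labelled Spo11KO they summed to 0.251% and 0.276%. Most genes of that list, such as Isg15, Ifit1, Ifit3, Ifit3b and Usp18, were higher in the second NRRA library of both genotypes, as was Cxcl10. Irf9, Mx1 and Irf1 were higher in the second NRRA library of Stra8KO only. With 2 libraries per group, members under 1 CPM could be called only for large changes.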
